A study of Mus musculus with 9 samples.

Results

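The genes described here encode the nuclear subunits of the mitochondrial respiratory chain and ATP synthase. They were taken by a rule on gene names from 20325 genes in the files, with earlier results of these data known. A gene belongs if its symbol begins with Ndufa, Ndufb, Ndufc, Ndufs, Ndufv, Uqcr, Cox4, Cox5, Cox6, Cox7, Cox8 or Atp5, or if it is Sdha, Sdhb, Sdhc, Sdhd or Cyc1. This gave 91 genes. By their known roles, 82 encode subunits: 36 of complex I, 4 of complex II, 9 of complex III, 18 of complex IV and 15 of ATP synthase (complex V). Ndufa4, long counted to complex I, was placed in complex IV, where it is now known to sit. The other 9 share the name but were not counted as subunits. They are 5 assembly factors of complex I (Ndufaf1, Ndufaf2, Ndufaf3, Ndufaf4 and Atp5sl, now called Dmac2), Ndufa4l2 (a paralog of Ndufa4), Cox7a2l (a factor of respiratory supercomplexes), Atp5s (coupling factor B) and Cox4nb. Cox4nb, now called Emc8, neighbours Cox4i1 and encodes a member of the endoplasmic reticulum membrane complex, so it is not a respiratory gene.

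Complex I takes electrons from NADH and complex II takes them from succinate. Both pass them through ubiquinone to complex III, which hands them over cytochrome c to complex IV and oxygen. Complexes I, III and IV pump protons out of the mitochondrial matrix, and ATP synthase lets them back in to make ATP. Liver cells hold many mitochondria and use this ATP for the synthesis of glucose, urea and plasma proteins. Most subunits come from nuclear genes, and a few core subunits of complexes I, III, IV and V come from mitochondrial DNA. Transcripts of the mitochondrial genome were not analysed here, as none of the 13 subunit genes listed was matched by symbol to a gene in the files.

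The series compared polyadenylated RNA of whole livers of male C57BL/6J mice on chow, with 3 livers in each of 3 groups. All animals began germ-free. GF mice remained so with no supplement. GF+SCFA mice remained so too, with short-chain fatty acids (products of gut fermentation) in their water: acetate at 67.5 mM, propionate at 25.9 mM and butyrate at 40 mM. ConvD mice were colonised by a single gavage with the cecal microbiota of conventional donors. Ages disagree in the labels: the design text names 14 weeks, while the protocol has mice colonised when 15 weeks old, kept for 4 weeks and dissected when 19 weeks old. Mice were housed by colonisation status, so cage and group cannot be told apart. The labels do not name the animal behind each sample, so the p-values reflect only how far these samples differ from each other.

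The smallest library held 18193071 and the largest 21627696 expected counts, and samples of the same group differed beyond sampling noise (chi-square per degree of freedom of at least 11.1 in all 9 pairs within groups). Within GF and ConvD, the sample numbered 3 stood apart, with a chi-square per degree of freedom of 39.9 and 53.4 to the other GF livers and 34 and 50.9 to the other ConvD livers, against 15 and 21.4 between those. All 6 hepatocyte markers listed were present, with a summed level of 77748 to 105284 TPM (deposited transcript abundances normalised for gene length and library size). Kupffer cell and macrophage markers summed to 132 to 176 TPM in GF, 145 to 174 TPM in GF+SCFA and 210 to 256 TPM in ConvD livers. Neutrophil markers summed to 1.37 to 3.72 TPM in GF, 0.85 to 2.5 TPM in GF+SCFA and 20.8 to 33.2 TPM in ConvD livers. Erythroid markers summed to 490 to 693, 379 to 633 and 649 to 2534 TPM in the same order. In whole liver, fewer cells of a type and less RNA per cell cannot be told apart.

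Together the 82 subunit genes held 1.92%, 1.88% and 2.18% of all TPM in the GF livers, 2.08%, 2.15% and 2.18% in the GF+SCFA livers and 2.14%, 1.93% and 2.02% in the ConvD livers. GF replicate 3 stood with the GF+SCFA livers, and the 3 groups overlapped in TPM. The overlap depended on the scaling: as CPM (counts normalised for library size, here after TMM scaling), the 76 tested subunit genes summed to 10144, 10243 and 10462 in GF, 10994, 10801 and 11142 in GF+SCFA and 9973, 9678 and 10392 in ConvD livers. On that scale all GF+SCFA livers lay above all others, over all complexes and in complexes I, III, IV and V, but not in complex II. In TPM, complex I summed to 5188, 5126 and 5870 TPM in GF, 5655, 5819 and 5927 TPM in GF+SCFA and 5814, 5265 and 5559 TPM in ConvD livers. ATP synthase summed to 5932, 5714 and 6653 TPM in GF, 6298, 6419 and 6576 TPM in GF+SCFA and 6529, 5880 and 6004 TPM in ConvD livers. In both, GF replicate 2 was the lowest liver, the GF+SCFA livers lay close together and the GF livers spread the most. The highest liver exceeded the lowest by 1.16-fold to 1.2-fold in the 5 complexes.

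**Figure D1:**
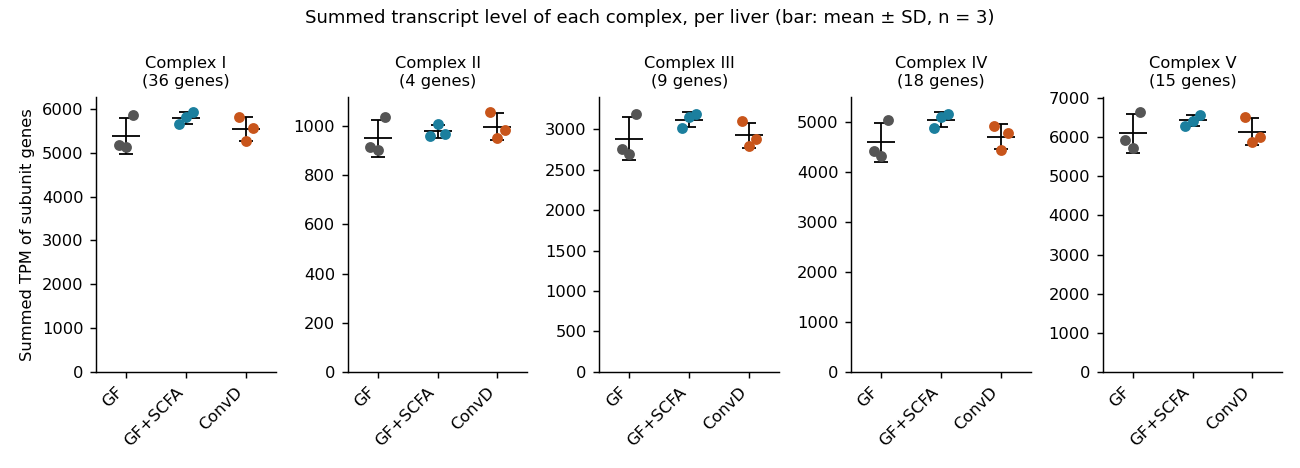
Summed TPM of the subunit genes of each complex on the vertical axis, 1 point per liver, by group; bars give the mean ± SD (n = 3). On this scale, which has no TMM scaling, the groups overlap in every panel, and the highest liver is at most 1.2 times the lowest.

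Levels within a complex were compared per length, as mean TPM of the 9 livers. In complex I the accessory subunit Ndufb9 was highest at 391 TPM (347 to 431 TPM over the livers), followed by Ndufa6 at 333 TPM, whose range of 289 to 367 TPM overlapped it. Ndufa11, a membrane-arm subunit, was lowest at 21.8 TPM (19 to 23.9 TPM), below Ndufs4 at 57.7 TPM (51.5 to 60.1 TPM). The other 32 complex I genes lay between these. The TPM of Ndufa11 rests on its deposited length of 2661 bases. As CPM, which is not length-normalised, its GF mean of 35.7 was below most complex I genes. It was above Ndufa12 (31.9 CPM, 561 bases) and Ndufc1 (20.6 CPM, 414 bases). In complex II the flavoprotein Sdha stood at 294 TPM (272 to 318 TPM) and the iron-sulfur protein Sdhb at 286 TPM (258 to 305 TPM), above the membrane anchors Sdhd (220 TPM) and Sdhc (176 TPM). Sdha and Sdhb did not differ beyond their spread.

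In complex III the small accessory subunit Uqcrq was highest at 575 TPM (505 to 651 TPM) and the core protein Uqcrc1 lowest at 197 TPM (178 to 214 TPM). Uqcrfs1, the Rieske iron-sulfur protein, overlapped Uqcrc1 at 200 TPM (167 to 223 TPM). In complex IV Ndufa4 led at 894 TPM (789 to 983 TPM), above Cox4i1 at 542 TPM (494 to 605 TPM), and among the main isoforms Cox7a2 was lowest at 231 TPM (204 to 253 TPM). In ATP synthase the catalytic beta subunit Atp5b was highest at 985 TPM (930 to 1085 TPM). Atp5j2, a membrane subunit, was lowest at 186 TPM (157 to 217 TPM) and overlapped the c-ring gene Atp5g2 at 204 TPM (182 to 224 TPM). The ratio of the highest to the lowest gene, main isoforms only, ran from 1.67 in complex II to 17.9 in complex I. That of complex I depends on Ndufa11 and its deposited length of 2661 bases.

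**Figure D2:**
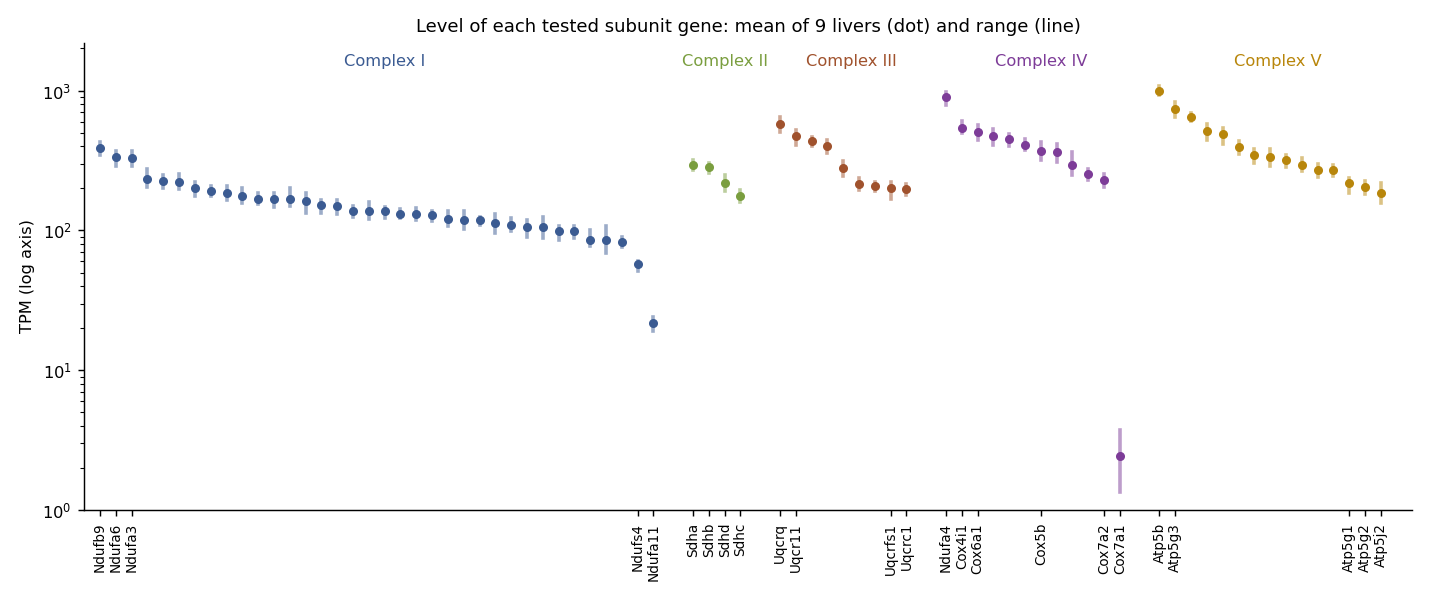
Mean TPM of each tested subunit gene over the 9 livers (dot) and its range (line), on a log axis, ordered by level within each complex, with some genes labelled. Ndufa11 at 21.8 TPM and the tissue isoform Cox7a1 at 2.42 TPM stand apart below the others of their complexes. The value of Ndufa11 depends on its deposited length of 2661 bases.

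Several complex IV subunits have isoforms used in muscle, brown fat, lung or testis, and the liver samples held almost only the widely expressed ones. Cox4i1 held at least 99.9% of the TPM of the Cox4i pair and Cox6a1 at least 99.9% of the Cox6a pair. Cox6b1 held at least 99.7% of its pair and Cox8a at least 99.9% of the Cox8 family. Cox7b2 and Cox8c had 0 counts in all 9 livers, where a floor of 3 counts allows up to 0.139 to 0.165 CPM in a library (counting error only). Cox8b had 2 counts in all, Cox6a2 5, Cox4i2 12 and Cox6b2 23. These 6 genes did not pass the filter on low counts, and the other 85 genes were tested.

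Cox7a1, the heart and muscle isoform of the Cox7a pair, was the exception. It was measured at 3.39, 2 and 3.75 TPM in GF, 1.46, 1.34 and 1.42 TPM in GF+SCFA and 3.42, 2.7 and 2.26 TPM in ConvD livers, from 5 to 14 counts per liver. All GF+SCFA livers lay below all others. It made up 1.34% ± 0.368 of the pair in GF, 0.591% ± 0.032 in GF+SCFA and 1.19% ± 0.227 in ConvD livers (SD, n = 3 each). The difference between GF+SCFA and GF did not pass the test (log2 fold change -1.07, SE 0.39, edgeR adjusted p = 0.321). That between ConvD and GF+SCFA did not pass either (0.89, SE 0.40, edgeR adjusted p = 0.141), but passed with limma on log2(TPM + 1) (0.65, adjusted p = 0.0166; adjusted p 0.119 to 0.326 over the 14 other alternatives run). Of 5 muscle markers, Myh7 and Myl2 were at 0 in all livers, and the list summed to 0.21 to 0.38 TPM in GF, 0.37 to 0.71 TPM in GF+SCFA and 0.22 to 0.84 TPM in ConvD livers. Cholangiocyte markers were also lowest in GF+SCFA, with sums of 3.53 to 4.25 TPM in GF, 2.2 to 2.25 TPM in GF+SCFA and 2.4 to 4.41 TPM in ConvD livers; 0 of 4 were called, and 3 of 4 lay below all GF livers. The part of these cell types in the values of Cox7a1 was not tested.

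Subunit c of ATP synthase, which forms the rotating ring in the membrane, comes from 3 genes that encode the same mature protein. Atp5g3 held 63.1% ± 1.26 of their summed TPM in GF, 64.1% ± 0.624 in GF+SCFA and 64.4% ± 1.72 in ConvD livers (SD, n = 3 each). Atp5g1 held 18.7% ± 0.586, 19% ± 0.64 and 18.1% ± 0.957, and Atp5g2 18.1% ± 0.703, 16.9% ± 0.64 and 17.5% ± 0.772, in the same order. The order Atp5g3 over the other two was the same in all 9 livers, and the ranges of Atp5g1 (17 to 19.8%) and Atp5g2 (16.4 to 18.8%) overlapped. Reads were shared with similar sequences in all 9 libraries for Atp5g3 and 7 others of the 91 genes, among them Atp5a1, Cox7c, Ndufa6 and Uqcrh, and their counts were never whole, so their levels are less certain.

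Few of these genes differed between colonised and germ-free mice. In ConvD against GF livers 1 of 85 tested genes rose (Ndufa4l2) and 3 fell (Ndufaf4, Atp5sl and Atp5k), and only Atp5k encodes a subunit. Of all 12037 genes tested, 5.93% were called higher and 6.9% lower (edgeR, adjusted p under 0.05). The median log2 fold change of the 85 genes was -0.04, against 0.00 for all genes tested. For 82 of the 85 genes the 95% interval of the log2 fold change lay within ±0.5, which held for 55.5% of all genes tested. The exceptions were Ndufa4l2, Ndufaf4 and Cox7a1. The ConvD livers did not overlap the GF livers in 3 genes that were higher and 11 that were lower, where the shares of all genes were 15.7% and 15.9%. By complex, 0 of 36 genes of complex I, 0 of 4 of complex II, 0 of 9 of complex III and 0 of 12 of complex IV were called, and 1 of 15 of ATP synthase.

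Levels between samples are given below as CPM after TMM scaling and are not length-normalised. Ndufaf4, an assembly factor of the early complex I intermediates, was measured at 35.2, 30.4 and 34.6 CPM in GF, 31.2, 34 and 32.1 CPM in GF+SCFA and 23.9, 25.8 and 24.4 CPM in ConvD livers. The ConvD livers lay below all 6 others, and the GF and GF+SCFA livers overlapped. The log2 fold change against GF was -0.44 (SE 0.08, edgeR adjusted p = 0.0039), and the call held in each of the 9 fits without 1 liver (adjusted p 0.00344 to 0.0209). It was lost with limma on log2(TPM + 1) (adjusted p = 0.0528) and kept with the other 6 settings. Atp5sl, which encodes another factor needed to build the membrane arm of complex I, was measured at 28.2, 30.7 and 31.5 CPM in GF, 29.1, 26.4 and 29.2 CPM in GF+SCFA and 23.4, 24.1 and 24.3 CPM in ConvD livers. Again all ConvD livers were below all others (-0.33 against GF, SE 0.078, edgeR adjusted p = 0.0142, and 0.0533 without ConvD replicate 1; 0.018 was the lowest of the 9 values). The call was also lost with library totals alone (0.0618) and with limma (0.104). The remaining complex I assembly factors named by the rule, Ndufaf1, Ndufaf2 and Ndufaf3, gave log2 fold changes of 0.17, 0.22 and -0.00 (edgeR adjusted p = 0.178, 0.199 and 0.998).

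Atp5k, subunit e at the interface between ATP synthase dimers, was measured at 75.5, 68.6 and 69.1 CPM in GF, 71.8, 69.2 and 76.4 CPM in GF+SCFA and 63.8, 55.9 and 59.2 CPM in ConvD livers. The highest ConvD liver lay below the lowest of the others. The log2 fold change against GF was -0.25 (SE 0.073, edgeR adjusted p = 0.0359). The call was lost without GF replicate 1 (0.129), GF replicate 2 (0.0524), GF+SCFA replicate 2 (0.05), ConvD replicate 2 (0.148) or ConvD replicate 3 (0.0658), and 0.0361 was the lowest adjusted p of the 9 fits. It was also lost with upper-quartile scaling (0.106), library totals alone (0.185), the 2 groups alone (0.0635) and limma (0.237).

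Ndufa4l2, a paralog of Ndufa4 known for its induction in low oxygen, was scarce, with 10 to 33 counts per liver. It was measured at 0.543, 0.544 and 0.61 CPM in GF, 0.794, 1.24 and 0.872 CPM in GF+SCFA and 1.6, 1.17 and 1.01 CPM in ConvD livers. GF livers were lowest, and the GF+SCFA and ConvD livers overlapped. Against GF it was 2.22-fold higher in ConvD (log2 fold change 1.15, SE 0.30, edgeR adjusted p = 0.0229). The difference between GF+SCFA and GF did not pass (1.71-fold, adjusted p = 0.354). The ConvD call was lost without GF replicate 1 (adjusted p = 0.0658), GF replicate 2 (0.0645), ConvD replicate 1 (0.097) or ConvD replicate 2 (0.0505), and 0.0206 was the lowest of the 9 values. In ConvD against GF livers, 5 of 6 tested Kupffer cell and macrophage markers and 2 of 2 tested neutrophil markers were called higher, and their part in the values of Ndufa4l2 was not tested.

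The genes with the next smallest p did not pass. They were Cox4nb (-0.21, edgeR adjusted p = 0.136), the membrane-arm subunit Ndufb10 (-0.19, 0.147), Uqcrc1 (-0.13, 0.163), Ndufaf1 (0.17, 0.178) and Cox4i1 (-0.14, 0.192). The most abundant genes of the complexes gave log2 fold changes of -0.05 (Ndufb9), -0.05 (Sdha), -0.08 (Uqcrq), 0.03 (Ndufa4) and -0.08 (Atp5b), each with a 95% interval between -0.24 and 0.18.

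**Figure D3:**
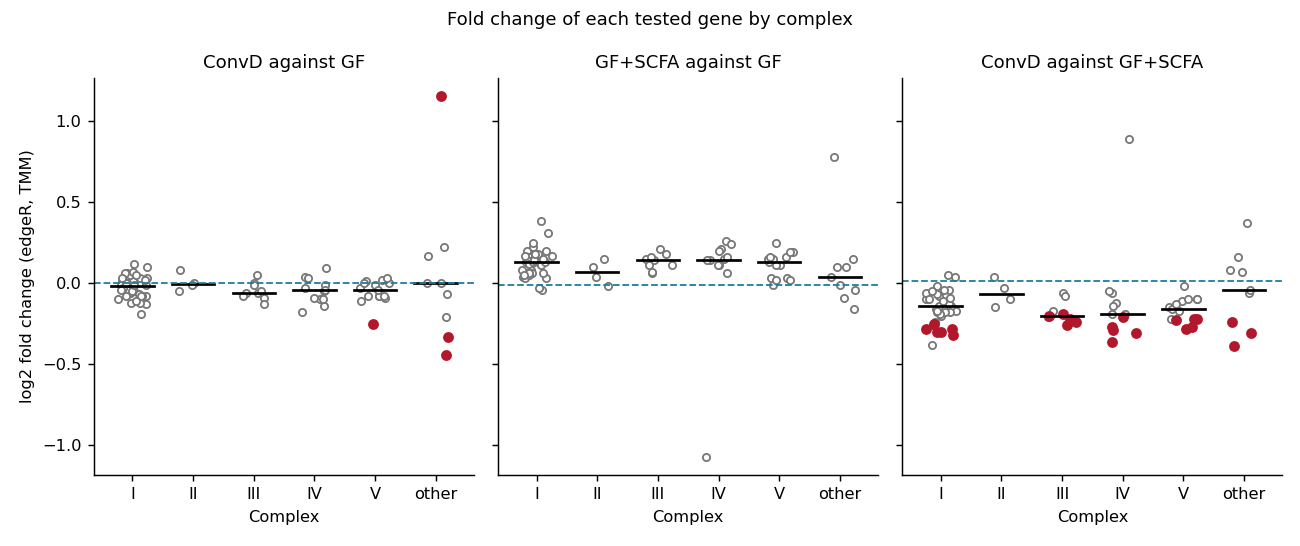
Log2 fold change of each of the 85 tested genes (vertical axis) by complex, in the 3 comparisons. Filled red points passed the test (edgeR adjusted p under 0.05), open points did not, black bars are medians per complex and the dashed line is the median of all genes tested. Points sit around 0 in ConvD against GF, mostly above 0 in GF+SCFA against GF and mostly below 0 in ConvD against GF+SCFA.

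In germ-free mice given short-chain fatty acids, none of the 85 genes passed the test, yet most values were a little higher. In GF+SCFA against GF livers, 0 genes were called higher and 0 lower with edgeR (all genes: 0.00831% higher, 0.0332% lower), and 0 with DESeq2. At an unadjusted p under 0.05 there were 26 higher and 1 lower, where the shares of all genes tested were 5.09% and 7.18%. The log2 fold change was above 0 in 76 of the 85 genes, with a median of 0.13 against -0.01 for all genes. The GF+SCFA livers lay above all GF livers in 43 genes and below them in 1 (Cox7a1), where the shares of all genes were 9.06% and 8.86%. The median was 0.13 in complex I, 0.07 in complex II, 0.14 in complex III, 0.15 in complex IV and 0.13 in ATP synthase.

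Cox6a1, a membrane-spanning subunit of complex IV, had the smallest p. It was measured at 136, 145 and 144 CPM in GF and 169, 167 and 165 CPM in GF+SCFA livers (log2 fold change 0.24, SE 0.062, edgeR adjusted p = 0.189). The groups did not overlap. Ndufb4, an accessory subunit of the membrane arm of complex I, was measured at 34.9, 34.7 and 38.8 CPM in GF and 46.5, 41.1 and 46.7 CPM in GF+SCFA livers (0.31, SE 0.087, edgeR adjusted p = 0.218). All GF+SCFA values were again above all GF values. The matrix-facing complex IV subunits Cox5b (0.21, adjusted p = 0.251) and Cox5a (0.26, 0.283), the complex I subunits Ndufa5 (0.25, 0.273) and Ndufa12 (0.22, 0.307) and the Rieske protein Uqcrfs1 (0.21, 0.321) followed, with no overlap in any. Sdha gave -0.02 (95% interval -0.16 to 0.13) and Atp5b 0.03 (-0.12 to 0.18).

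The genes are short: the median length of the 85 was 692 bases, against 2791 bases for all genes tested, and 56 of them were under 1000 bases. In the same comparison 798 other genes under 1000 bases had a median log2 fold change of 0.09, and the GF+SCFA livers lay above the GF livers in 194 of them. The mitochondrial ribosomal proteins, which translate the subunits encoded in mitochondria, had a median of 0.12, with 30 of 76 above all GF livers. The cytosolic ribosomal proteins had a median of 0.03, with 5 of 78 above. The part of transcript length in the values was not tested.

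Against GF+SCFA livers, ConvD livers had lower levels of 24 of the 85 genes, and none was higher. Of all genes tested, 8.97% were called lower and 9.44% higher. These calls comprised 6 of 36 complex I genes, 0 of 4 complex II genes, 5 of 9 complex III genes, 5 of 12 complex IV genes, 5 of 15 ATP synthase genes and 3 of the 9 genes that encode no subunit. The median log2 fold change was -0.15, against 0.01 for all genes. The differences were small, from -0.19 (Uqcrc1) to -0.39 (Ndufaf4). The ConvD livers lay below all GF+SCFA livers in 45 genes and above them in 1 (Cox7a1), where the shares of all genes were 18.9% and 19%. This comparison shares its GF+SCFA livers with the one before and its ConvD livers with the first, so the 3 are not independent.

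The count depended on the scaling and on single livers. With upper-quartile scaling 9 genes were lower, with library totals alone 3, and with limma on log2(TPM + 1) 0 lower and 1 higher (Cox7a1). The same settings moved the calls over all genes from 9.44% higher and 8.97% lower to 12.6% and 6.25%, 12.8% and 4.87%, and 12% and 3.47%. They moved the median of all genes from 0.01 to 0.06, 0.08 and 0.07, and the difference between the median of the 85 genes and that of all genes was -0.15, -0.15 and -0.13, against -0.15 with TMM. The count was 21 to 25 without a GF liver, 4 without GF+SCFA replicate 3 and 5 without ConvD replicate 2. It was 12 without GF+SCFA replicate 1 or ConvD replicate 1, 15 without GF+SCFA replicate 2 and 27 without ConvD replicate 3. Of all genes tested, 8.47% to 9.47% were called lower without a GF liver, 5.62% without GF+SCFA replicate 3 and 5.82% without ConvD replicate 2. That share was 6.42% without GF+SCFA replicate 1, 5.58% without ConvD replicate 1 or GF+SCFA replicate 2 and 8.15% without ConvD replicate 3. In these livers the genes moved together: GF+SCFA replicate 3 had the highest CPM of its group in 51 of the 85 genes, ConvD replicate 3 in 59, ConvD replicate 2 in 3 and GF replicate 3 in 53, where each such liver was highest in 32.8% to 36.8% of all genes tested.

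**Figure D4:**
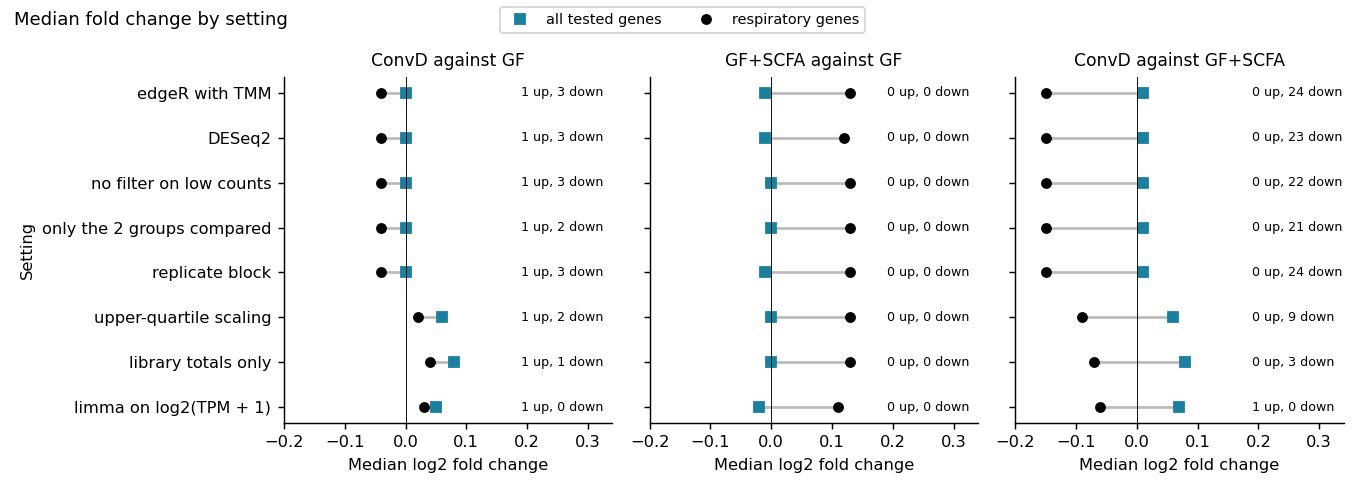
Median log2 fold change of the 85 genes (black circles) and of all genes tested (blue squares) under each setting that uses all livers of the groups compared, in the 3 comparisons, with the number of genes called higher and lower at the right. In ConvD against GF+SCFA the distance between circle and square stays between -0.16 and -0.13 over these settings while the number called lower runs from 24 to 0; in fits without 1 liver it reached -0.19.

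The 3 genes whose call in this comparison held in each of the 9 fits without 1 liver were Ndufaf4, Cox5b and Cox6a1. Ndufaf4, with the levels given above, was lower by a log2 fold change of -0.39 (SE 0.08, edgeR adjusted p = 0.00462; 0.00344 to 0.0258 over the 9 fits). Cox5b, the zinc-binding subunit of complex IV on the matrix side, was measured at 113, 116 and 115 CPM in GF, 129, 126 and 141 CPM in GF+SCFA and 108, 108 and 103 CPM in ConvD livers. The 3 groups did not overlap, with ConvD lowest and GF+SCFA highest. Its log2 fold change was -0.31 (SE 0.065, edgeR adjusted p = 0.0051; 0.00549 to 0.0301 over the 9 fits). Cox6a1 was measured at 135, 137 and 144 CPM in ConvD livers, overlapping the GF livers and below all GF+SCFA livers (-0.27, SE 0.062, edgeR adjusted p = 0.0097; 0.00907 to 0.0411 over the 9 fits). With library totals alone the calls of Cox5b and Ndufaf4 held and that of Cox6a1 did not.

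The promoters of these 3 genes are shown because their calls were the most stable to leaving out a liver and respiratory genes are known to carry sites of shared factors near their starts. Each is the 250 bases before the annotated start in RefSeq, build GRCm38.p6, on the strand of the gene. Capitals mark matches on either strand to 5 letter strings: GCATGCGC for NRF1, CCGGAAG for the ETS family with GABP, GGGCGG for SP1, TGACGTCA for CREB and AAGGTCA for the estrogen-related receptors (ERR).
Ndufaf4, chr4:24897833-24898082, plus strand: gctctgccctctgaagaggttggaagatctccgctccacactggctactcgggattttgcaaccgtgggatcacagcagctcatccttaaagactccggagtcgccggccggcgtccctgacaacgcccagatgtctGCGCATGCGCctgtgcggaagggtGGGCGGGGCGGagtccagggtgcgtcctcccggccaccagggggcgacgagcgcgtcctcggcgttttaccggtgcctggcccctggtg
Cox5b, chr1:36691237-36691486, plus strand: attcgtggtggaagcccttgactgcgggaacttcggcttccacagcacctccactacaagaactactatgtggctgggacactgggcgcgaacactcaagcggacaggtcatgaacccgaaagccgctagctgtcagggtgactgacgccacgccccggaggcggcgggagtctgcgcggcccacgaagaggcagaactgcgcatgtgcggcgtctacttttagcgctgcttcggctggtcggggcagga
Cox6a1, chr5:115348959-115349208, minus strand: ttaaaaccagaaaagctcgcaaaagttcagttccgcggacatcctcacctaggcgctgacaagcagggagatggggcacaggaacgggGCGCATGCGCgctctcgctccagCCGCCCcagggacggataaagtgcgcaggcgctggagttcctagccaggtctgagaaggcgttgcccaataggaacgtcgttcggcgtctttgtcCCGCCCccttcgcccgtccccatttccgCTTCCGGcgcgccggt

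The windows of Ndufaf4 and Cox6a1 held the NRF1 string on both strands, as 1 palindromic run, and the SP1 string 2 times (overlapping by a base in Ndufaf4), and that of Cox6a1 also held the ETS string. The Cox5b window held none of the 5 strings. Windows were found for 74 of the 91 genes, 80 windows in all. The NRF1 string stood in 11.2% of these and in 2.26% of all 32851 windows of the same length, the ETS string in 16.2% and 6.91%, and the SP1 string in 37.5% and 32.7%. The CREB string stood in 5% and 1.55%, and the ERR string in 6.25% and 4.08%. Matches are a description of the letters in these windows.

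In complex IV, Cox5a, which with Cox5b lies on the matrix side, was measured at 120, 106 and 112 CPM in GF, 132, 124 and 149 CPM in GF+SCFA and 101, 98 and 117 CPM in ConvD livers. GF+SCFA was above both other groups, which overlapped each other (ConvD against GF+SCFA -0.36, SE 0.089, edgeR adjusted p = 0.0133; lost without GF+SCFA replicate 3 at 0.0687, without ConvD replicate 1 at 0.0529 and without ConvD replicate 2 at 0.0581; 0.00483 was the lowest of the 9 values). Cox8a, a small membrane-spanning subunit, was measured at 107, 109 and 106 CPM in GF, 124, 125 and 121 CPM in GF+SCFA and 98, 90.5 and 114 CPM in ConvD livers (-0.29, adjusted p = 0.021). Cox6b1, on the intermembrane side, was measured at 108, 113 and 113 CPM in GF, 124, 118 and 128 CPM in GF+SCFA and 108, 107 and 107 CPM in ConvD livers (-0.21, adjusted p = 0.033). In both genes the ConvD livers overlapped the GF livers. Cox4i1, which binds regulatory adenine nucleotides, did not pass with edgeR (-0.19, adjusted p = 0.0546) and passed with DESeq2 (adjusted p = 0.0379) and without ConvD replicate 3 (0.0404); the highest value over its alternatives was 0.452.

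In complex I, 1 of 7 core subunits and 5 of 29 accessory subunits fell. Ndufv2, the core subunit that carries an iron-sulfur cluster beside the NADH-oxidising flavoprotein, was measured at 76, 75 and 78.9 CPM in GF, 84.8, 80.4 and 94.5 CPM in GF+SCFA and 70.2, 71.6 and 71.9 CPM in ConvD livers. The groups did not overlap (ConvD against GF+SCFA -0.28, SE 0.069, edgeR adjusted p = 0.0127), and the call was lost in 1 of the 9 fits, without GF+SCFA replicate 3 (0.0672; 0.012 was the lowest). The accessory subunits were Ndufb10 and Ndufa3 of the membrane arm (-0.32 and -0.28, adjusted p = 0.0147 and 0.0179) and Ndufa12, Ndufa5 and Ndufa7 of the matrix arm (-0.30, -0.30 and -0.25, adjusted p = 0.0172, 0.0214 and 0.0401). Ndufb10 was measured at 87, 85.1 and 85.6 CPM in GF, 105, 82 and 96.2 CPM in GF+SCFA and 77.1, 72.3 and 77 CPM in ConvD livers. ConvD and GF+SCFA livers did not overlap, and the spread in GF+SCFA was wide. Its call was lost without GF+SCFA replicate 1 (adjusted p = 0.0699), without GF+SCFA replicate 3 (0.0539) and without ConvD replicate 2 (0.0617), with 0.00467 as the lowest of the 9 values. Ndufb4, which had the second smallest p in GF+SCFA against GF livers, gave -0.26 (adjusted p = 0.0529) and did not pass.

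In complex III, Cyc1 (cytochrome c1, the subunit that reduces cytochrome c), Uqcrc1 and the small subunits Uqcrq, Uqcrb and Uqcr10 fell. Uqcrq was measured at 166, 176 and 178 CPM in GF+SCFA and 148, 143 and 143 CPM in ConvD livers (-0.26, SE 0.072, edgeR adjusted p = 0.0227). Uqcrc1 was measured at 206, 207 and 208 CPM in GF, 216, 215 and 215 CPM in GF+SCFA and 190, 192 and 185 CPM in ConvD livers (-0.19, adjusted p = 0.0423). Its 3 groups did not overlap, and each was tight. Uqcrb and Cyc1 gave -0.22 and -0.20 (adjusted p = 0.0376 and 0.0402), and Uqcr10 lay at the threshold (-0.24, adjusted p = 0.0499). The Rieske protein Uqcrfs1 gave -0.21 and did not pass (adjusted p = 0.068).

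In ATP synthase, the central stalk subunits Atp5e and Atp5d, the c-ring gene Atp5g1 and the membrane subunits Atp5k and Atp5l fell. Atp5e was measured at 71.2, 67.7 and 72.7 CPM in GF, 79.2, 76.4 and 85.9 CPM in GF+SCFA and 69.5, 60.8 and 69.6 CPM in ConvD livers (ConvD against GF+SCFA -0.27, SE 0.074, edgeR adjusted p = 0.0207). GF+SCFA livers were above all others, and ConvD replicate 2 was the lowest. Atp5k gave -0.28 (adjusted p = 0.0167), Atp5l -0.23 (0.0437), Atp5d -0.22 (0.0295) and Atp5g1 -0.22 (0.0345). The catalytic subunits Atp5a1 and Atp5b gave -0.02 (adjusted p = 0.845) and -0.11 (0.312), and none of the 4 peripheral stalk genes passed (-0.10 to -0.17).

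Complex II, which is also an enzyme of the TCA cycle, had no call in any comparison. Sdha was measured at 541, 562 and 530 CPM in GF, 542, 557 and 513 CPM in GF+SCFA and 531, 518 and 530 CPM in ConvD livers. The 3 groups overlapped (ConvD against GF+SCFA -0.03, 95% interval -0.18 to 0.12). The largest value of the complex was that of Sdhb, -0.15 (adjusted p = 0.153). Among the genes that encode no subunit, Atp5sl (-0.24, adjusted p = 0.0474) and Cox4nb (-0.31, 0.0273) fell with Ndufaf4.

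Of the 24 calls, 21 were lost in at least 1 of the 9 fits without 1 liver and 10 in at least 5 fits. Uqcr10 and Uqcrc1 were lost in 7, and the highest adjusted p was 0.187, for Uqcr10 without GF+SCFA replicate 3. Between ConvD and GF+SCFA livers, 2 of 6 tested macrophage markers and 2 of 2 tested neutrophil markers were called higher, and their part in the lower values of the respiratory genes was not tested.

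**Figure D5:**
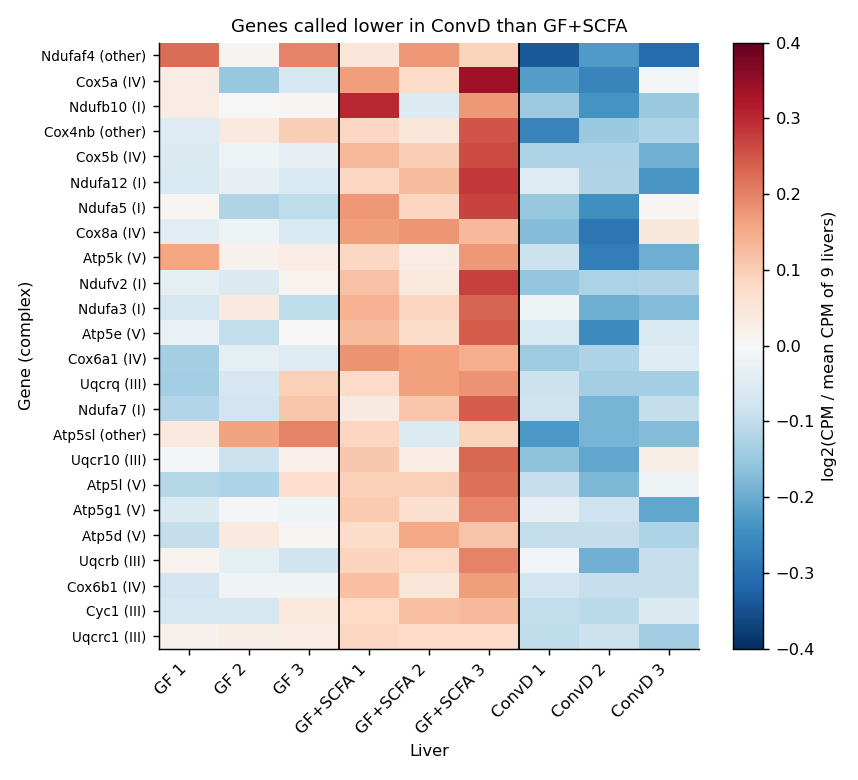
Level of the 24 genes called lower in ConvD than in GF+SCFA livers, as log2 of the CPM over the mean CPM of the 9 livers (colour, -0.4 to 0.4), 1 column per liver and 1 row per gene, with its complex in brackets. The genes were picked for the difference between the GF+SCFA and ConvD columns, and in Ndufaf4 and Atp5sl a GF liver is the highest of the 9.

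Other genes of the pathway were counted in lists drawn up by known role. The shares of all genes called higher and lower were, as above, 5.93% and 6.9% in ConvD against GF and 9.44% and 8.97% in ConvD against GF+SCFA livers. Of 39 tested assembly factors outside the name rule, 1 rose and 2 fell in ConvD against GF livers (2.56% and 5.13%, below the shares of all genes; median -0.04). Against GF+SCFA livers 0 rose and 7 fell (17.9% lower; median -0.11). With DESeq2, 4 fell against GF+SCFA livers, where 8.72% of all genes fell. Lrpprc, which stabilises mitochondrial messenger RNA, fell, with 154 ± 11.1 CPM in germ-free and 127 ± 1.13 CPM in colonised livers (SD of 3 livers; -0.28, edgeR adjusted p = 0.0194). Uqcc, an assembly factor of complex III, fell from 39.2 ± 1.07 to 31.9 ± 2.77 CPM (-0.30, 0.0221). The copper chaperone Cox19 rose (0.46, adjusted p = 0.046).

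The 19 TCA cycle enzymes, which supply the electrons, held larger changes than the subunits in a few genes. In ConvD against GF livers 0 rose and 3 fell (15.8%), and 0 rose and 4 fell (21.1%) against GF+SCFA livers. With DESeq2, 4 fell in each of these comparisons. Idh3a, a subunit of the NADH-producing isocitrate dehydrogenase, fell from 36.8 ± 2.98 to 22.8 ± 1.45 CPM (-0.69, edgeR adjusted p = 0.000409). Ogdh, of the 2-oxoglutarate dehydrogenase complex, fell as well (-0.38, adjusted p = 0.0175). The median of the list was 0.00 against GF and -0.08 against GF+SCFA livers. Of the list, 47.4% lay below all GF+SCFA livers and 0% above them, where the shares of all genes were 18.9% and 19%.

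Of 19 tested regulators of mitochondrial gene expression, only Esrra, a nuclear receptor that drives respiratory genes, was called in ConvD against GF livers, falling from 24.7 ± 2.1 to 19.9 ± 1.43 CPM (-0.31, edgeR adjusted p = 0.0334). Its paralog Esrrg was not called (-0.67, adjusted p = 0.0891), nor was Gabpa, the DNA-binding subunit of GABP (-0.20, 0.0896). Of 24 electron carrier and adenylate transport genes, Ucp2 (0.46, adjusted p = 0.0205) rose and the aspartate-glutamate carrier Slc25a13 (-0.32, 0.0206) fell. Of 20 genes of mitochondrial quality control and dynamics, the autophagy receptor Sqstm1 rose (0.30, adjusted p = 0.0212). The chaperone Hspd1 and the fusion protein Mfn1 fell (-0.24 and -0.22, 0.0478 and 0.0489). With DESeq2, 1 quality control gene rose and 1 fell. The shares called higher and lower were 0% and 5.26% of the regulators, 4.17% and 4.17% of the carrier genes and 5% and 10% of the quality control genes, each resting on 1 or 2 genes. The medians against GF were -0.16, -0.02 and -0.11 in the same order. Below all GF livers lay 26.3%, 25% and 45% of these lists, and above them 5.26%, 16.7% and 15%. The shares of all genes were 15.9% and 15.7%. Against GF+SCFA livers 1 regulator, 2 carrier genes and 3 quality control genes fell, and 2 quality control genes rose. With DESeq2, 1 regulator, 2 carrier genes and 4 quality control genes fell, and 1 quality control gene rose. Of the ribosomal proteins, 1 of 76 mitochondrial ones rose in ConvD against GF livers (Mrpl22, 0.30, edgeR adjusted p = 0.0414), and 0 were called by DESeq2. None of the 78 cytosolic ones was called, with 0 of them at an unadjusted p under 0.05 and 0 called by DESeq2. Their log2 fold changes ran from -0.18 to 1.93, and 3.85% lay above and 6.41% below all GF livers. Against GF+SCFA livers 7 of 76 mitochondrial ribosomal proteins fell (9.21%, median -0.10), with 25 below all GF+SCFA livers. Of 78 cytosolic ones 1 fell (median -0.01). With DESeq2, 3 mitochondrial ones and 1 cytosolic one were lower. None of these lists had a call in GF+SCFA against GF livers.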

How the data were processed

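Liver RNA came from a Qiagen kit and libraries from Illumina's stranded TruSeq mRNA kit, per the labels' protocols. Bowtie2, RSEM 1.2.23 and build mm9 are named per the submitters' processing notes; the strand setting is not given in the sources used here. The deposited expected counts are not normalised, and the deposited TPM values are normalised by the authors for length and depth. The deposited length columns served only as gene lengths in bases, and the effective length equalled the length in 182922 of 182925 values. In 83 of the 91 genes some counts were not whole (over 0.05 from a whole number), as RSEM shares reads among similar sequences such as pseudogenes, so genes with such copies are uncertain.

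Expected counts were rounded and fitted with edgeR 4.0.16 in R 4.3.3 (filterByExpr, minimum count 10, TMM factors 0.935 to 1.06, all 9 samples, robust quasi-likelihood F test, 6 residual degrees of freedom). Adjusted p-values are Benjamini-Hochberg over 12037 genes, and calls are at 0.05. The biological coefficient of variation was 10.6%. Alternatives were DESeq2 1.42.0, other scalings, no filter, 2 groups only, a replicate block, limma 3.58.1 on log2(TPM + 1) and leaving out each sample. The scripts were tested on simulated data.

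The genes and lists were chosen with earlier results of these data known. Of 335 list entries, 319 were matched by symbol. Genes are named by rule: called genes by smallest adjusted p (with the 8 smallest p where under 8 were called), the highest and lowest subunit of each complex, the isoform families, and up to 3 genes per list. Some genes that the rule covers are not reported here. Others named were picked after their values were seen.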

Additional observations from a re-analysis of the deposited data

How the results depend on the processing

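In ConvD against GF livers the number of genes called lower was 1 with library totals alone and 0 with limma on log2(TPM + 1), and the number called higher was 0 to 1 in fits without 1 liver. The median log2 fold change of the 85 genes turned to 0.02 with upper-quartile scaling, 0.04 with library totals and 0.03 with limma, settings that also moved the median of all genes. In ConvD against GF+SCFA livers the number called lower was 9 with upper-quartile scaling, 3 with library totals and 0 with limma (1 higher). The median was -0.09, -0.07 and -0.06 with those 3 settings. In fits without 1 liver the number was 4 to 27, where 5.58% to 9.47% of all genes tested were called lower. The cause was not tested. In GF+SCFA against GF livers 0 genes were called under each alternative run. Of 1406 values recomputed for named genes, 1224 kept their direction and side of the threshold, 176 lost a call, 6 gained one and 0 changed direction with a call. Correlations between same-numbered samples were -0.066 to 0.139, and GF replicate 2 correlated with ConvD replicate 1 (0.111) more than with ConvD replicate 2 (-0.066). Between GF and GF+SCFA livers, however, the same-numbered pairs (0.077 to 0.139) lay above all other pairs (-0.104 to 0.024). Whether the replicate numbers mark a shared batch was not tested. With a replicate block the counts were 24 lower against GF+SCFA, 20 of them the same genes, and 1 higher and 3 lower against GF. Low counts limit Ndufa4l2 and Cox7a1.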
